A study of Mus musculus with 12 samples.

Results

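The IFIT family (interferon-induced proteins with tetratricopeptide repeats) was followed through the genes Ifit1, Ifit2 and Ifit3 in mouse skin after an injection of RNAdjuvant. The members were the genes whose probe sets carry one of these symbols and no other, and each of the 3 had 1 such probe set, so that 3 of 19938 measured genes were members. Skin biopsies of female Balb/c mice were measured on 12 Affymetrix Mouse Gene 1.0 arrays in 4 groups of 3. Skin of untreated mice was the control, and the treated groups were taken 1.5 h, 6 h and 24 h after RNAdjuvant was given into the dermis at a labelled dose of 25 mg, a unit that was not checked here. RNAdjuvant is a vaccine adjuvant made of non-coding RNA held in a complex with a cationic peptide. No transgene or deletion is named for any group, no source used here gives the animals' age or the body site, and skin injected with carrier alone was not analysed here, so the injection and the adjuvant cannot be told apart. The labels call the 3 samples of a group biological replicates, and the p-values below measure the spread between them.

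IFIT proteins are effectors of the type I interferon response. Cells that sense foreign RNA make interferon, its receptor signals through JAK kinases to transcription factors that include STAT2 and IRF9, and these bind interferon-stimulated response elements, to which other IRF factors can also bind directly. IFIT1 binds messenger RNA whose cap lacks ribose methylation and blocks its translation, IFIT2 binds AU-rich RNA and can promote cell death, and IFIT3 forms complexes with the other members. In skin, keratinocytes, fibroblasts and immune cells can all switch these genes on.

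The family lies as a cluster on mouse chromosome 19. The stretches before the gene starts of the 3 members are shown because the time courses of the members differed. Sequences are RefSeq promoter windows of build GRCm38.p6, which were found for 3 of 3 members. Each is printed 5′ to 3′ on the + strand, as the 250 bases before the gene start, with capitals marking every match to the core of the interferon-stimulated response element (GAAANNGAAA, or TTTCNNTTTC on the opposite strand).

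Ifit1 (chr19:34640639-34640888): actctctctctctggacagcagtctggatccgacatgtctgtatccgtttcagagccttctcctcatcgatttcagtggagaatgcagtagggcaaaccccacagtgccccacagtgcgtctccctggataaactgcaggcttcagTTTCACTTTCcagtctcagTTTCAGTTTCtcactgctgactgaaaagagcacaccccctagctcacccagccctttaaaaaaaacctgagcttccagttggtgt

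Ifit3 (chr19:34583279-34583528): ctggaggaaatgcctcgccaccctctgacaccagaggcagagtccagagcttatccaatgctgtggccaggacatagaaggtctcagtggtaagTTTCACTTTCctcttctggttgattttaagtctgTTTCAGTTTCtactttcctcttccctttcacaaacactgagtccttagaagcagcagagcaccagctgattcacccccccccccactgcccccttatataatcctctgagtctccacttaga

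Ifit2, first start (chr19:34550444-34550693): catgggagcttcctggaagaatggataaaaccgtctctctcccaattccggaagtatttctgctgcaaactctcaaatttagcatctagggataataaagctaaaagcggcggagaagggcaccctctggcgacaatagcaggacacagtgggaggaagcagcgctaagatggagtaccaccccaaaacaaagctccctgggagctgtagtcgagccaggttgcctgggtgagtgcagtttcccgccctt

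Ifit2, second start (chr19:34550838-34551087): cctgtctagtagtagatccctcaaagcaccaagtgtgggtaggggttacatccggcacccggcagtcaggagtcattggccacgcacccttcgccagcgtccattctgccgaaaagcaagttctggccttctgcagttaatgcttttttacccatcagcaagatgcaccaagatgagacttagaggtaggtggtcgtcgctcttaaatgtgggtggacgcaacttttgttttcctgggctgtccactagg

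Ifit1 and Ifit3 each held 2 matches, and these were the same decamers in the same order. TTTCACTTTC began 104 bases before the start of Ifit1, with TTTCAGTTTC at 85 bases. In Ifit3 TTTCACTTTC began 156 bases before the start and TTTCAGTTTC 122 bases. Among 32851 mouse promoter windows of 300 bases, which add 50 bases after the start, 3.44% held at least 1 match on either strand and 0.225% held 2 or more. Neither window of Ifit2 held a match, which says only that these letters were not in these windows. The first Ifit2 window held the gamma-activated site TTCCTGGAA (searched as TTCNNNGAA, found in 8.3% of windows) 241 bases before the start. It overlaps the letters GGGAGCTTCC, a strict NF-kB pattern (GGGANNTTCC, or GGAANNTCCC on the opposite strand, in 1.47% of windows), at 247 bases. No member window held TATAAA, which occurred in 13.6% of windows. These matches are descriptions of letters, and binding was not measured.

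The medians of the 12 arrays ranged from 5.53 to 5.76 (log2), and within a group the correlation over all probe sets was 0.98 to 0.987. The labelled tissue carried its markers: the mean log2 value of 9 keratinocyte markers lay between 11.38 and 11.75 on every array. That of 8 fibroblast markers lay between 9.81 and 10.68. Skeletal muscle markers were high as well, with a mean over 9 markers between 11.06 and 12.02. Libraries that stood apart were 1.5 h replicate 1 and 6 h replicate 1, in which Glycam1, a gene of lymph node vessels, was at 11.38 and 10.88 against 3.87 to 4.46 on the other arrays. The mean log2 value of 7 lymph node and B cell markers, Glycam1 among them, was 6.90 and 6.45 there against 3.85 to 4.19 elsewhere. Results for the members are therefore also given without these libraries where that changes a call or a value by more than 1.5 times. In bulk skin, a change in the number of cells of a type and a change in RNA per cell cannot be told apart.

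Ifit1 was the member with the earliest rise. In untreated skin its log2 signal was 6.01, 6.20 and 6.30 in the 3 samples. At 1.5 h it was 9.34, 8.76 and 8.32, so that every treated sample lay above every control. The 6 h samples reached 11.33, 11.44 and 11.13. Those of 24 h stood at 9.66, 9.70 and 9.52. The 4 groups did not overlap, with 6 h highest, 24 h next, then 1.5 h, then untreated skin. The group means were 6.17 ± 0.15, 8.81 ± 0.51, 11.30 ± 0.16 and 9.63 ± 0.10 in the order of time (SD, n = 3 each). Ifit1 was 6.21-fold higher than in untreated skin at 1.5 h (log2 difference 2.63, standard error 0.196, adjusted p = 2.79e-05 in limma). It was 34.9-fold higher at 6 h (log2 difference 5.13, adjusted p = 4.27e-09). At 24 h it was still 11.0-fold higher (log2 difference 3.46, adjusted p = 2.49e-07).

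Ifit2 passed the test at 6 h and 24 h but not at 1.5 h. Its log2 signal was 6.19, 5.77 and 6.32 in untreated skin and 7.70, 6.79 and 6.47 at 1.5 h, with the lowest treated sample just above the highest control. The 6 h samples were at 11.01, 11.09 and 11.21, and the 24 h samples at 9.26, 9.65 and 9.26. All samples of both later groups lay above all samples of the earlier ones. The means were 6.09 ± 0.28, 6.99 ± 0.64, 11.11 ± 0.10 and 9.39 ± 0.22 (SD, n = 3 each). The 1.5 h difference of 0.89 (standard error 0.25) did not pass the test (adjusted p = 0.087). Ifit2 was 32.3-fold higher than in untreated skin at 6 h (log2 difference 5.01, adjusted p = 3.37e-08) and 9.82-fold higher at 24 h (3.30, adjusted p = 2.20e-06).

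Ifit3 resembled Ifit2 at 1.5 h and stayed closest to its 6 h value at 24 h. Its log2 signal was 7.34, 6.98 and 6.85 in untreated skin and 8.81, 7.73 and 7.33 at 1.5 h. These groups overlapped, since the highest control was above the lowest 1.5 h sample. The 6 h samples were at 11.59, 11.48 and 11.41 and the 24 h samples at 10.83, 10.73 and 10.80, all above the controls. The means were 7.06 ± 0.25, 7.96 ± 0.77, 11.49 ± 0.09 and 10.79 ± 0.05 (SD, n = 3 each). The 1.5 h difference of 0.90 (standard error 0.271) did not pass the test (adjusted p = 0.108). Ifit3 was 21.7-fold higher than in untreated skin at 6 h (log2 difference 4.44, adjusted p = 1.51e-07) and 13.3-fold higher at 24 h (3.73, adjusted p = 1.45e-06).

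**Figure D1:**
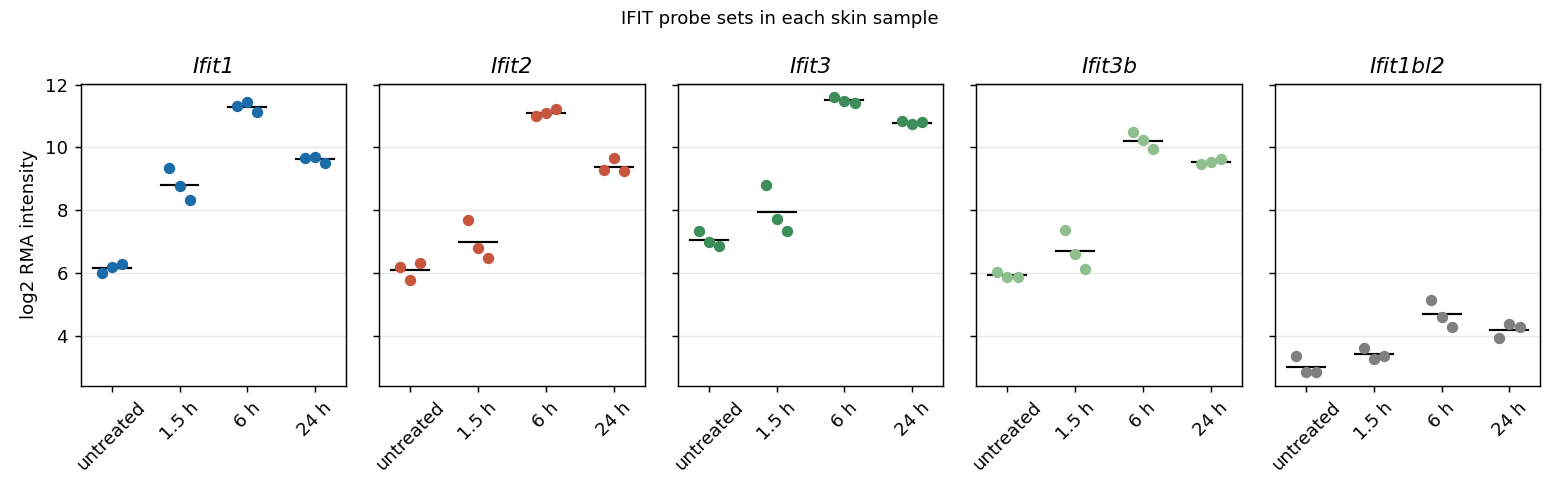
Log2 signal (RMA) of Ifit1, Ifit2, Ifit3 and their relatives Ifit3b and Ifit1bl2 in each of the 12 samples by group, with 1 point per sample and a line at the mean of 3. The 6 h samples of the 3 members lie between 11.01 and 11.59, above every other sample of the same gene, and the 1.5 h samples of Ifit1 stand at 8.32 to 9.34, clear of their controls.

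Across all genes, 0.612% were called higher at 1.5 h, 3.38% at 6 h and 2.55% at 24 h. Of the members, 1 of 3 was called higher at 1.5 h and 3 of 3 at 6 h and at 24 h. Ordered by the size of the rise among 19938 genes, Ifit1, Ifit2 and Ifit3 were at places 13, 121 and 114 at 1.5 h, at 5, 6 and 15 at 6 h, and at 22, 28 and 14 at 24 h. At 1.5 h the groups of Ifit1 and Ifit2 did not overlap with their controls, as was the case in this direction for 11.8% of all genes. At 6 h and 24 h all 3 members were higher without overlap, against 11.4% and 10.9% of all genes.

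The 1.5 h group was the least uniform. Its replicate 1 was the highest of its group for all 3 members and replicate 3 the lowest. The same replicate 1 was the highest in neutrophil markers (14 markers, mean log2 value 5.72 to 6.61 at 1.5 h against 5.13 to 5.45 in untreated skin, 5 of 14 called higher) and in glandular epithelium markers (8 markers, 7.23 to 8.36 against 5.51 to 5.62, 4 of 8 called higher). In lymph node and B cell markers it was the highest of its group as well (7 markers, 6.90 against 3.85 and 4.10, 0 of 7 called). The part of these cells in the results was not tested. Without 1.5 h replicate 1 the difference of Ifit1 was 2.37 (adjusted p = 1.49e-05), while that of Ifit2 was 0.53 (adjusted p = 0.198) and that of Ifit3 0.47 (adjusted p = 0.197). Without 1.5 h replicate 3 the differences of Ifit2 (1.15, adjusted p = 0.0381) and of Ifit3 (1.21, adjusted p = 0.0354) did pass.

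Between 1.5 h and 6 h all members rose, a step in which 5.47% of genes were called higher. Ifit2 rose 17.4-fold (log2 difference 4.12, adjusted p = 2.28e-07). Ifit3 rose 11.6-fold (3.54, adjusted p = 1.62e-06). Ifit1, which had already risen by 1.5 h, added 5.63-fold (2.49, adjusted p = 1.87e-06).

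Between 6 h and 24 h Ifit1 and Ifit2 fell, a step in which 1.41% of genes were called lower. Ifit1 was 3.19-fold lower at 24 h than at 6 h (log2 difference -1.67, adjusted p = 0.000703). Ifit2 was 3.28-fold lower (-1.72, adjusted p = 0.00336). For Ifit3 every 24 h sample lay below every 6 h sample, as for 9.29% of all genes, but the difference of -0.71 (95% interval -1.29 to -0.12) did not pass (adjusted p = 0.165). It did pass without 1.5 h replicate 1 (-0.71, adjusted p = 0.0208), without both libraries high in Glycam1 (-0.66, adjusted p = 0.0389), and with only the 6 h and 24 h groups in the fit (adjusted p = 0.0198).

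The members stood higher at 24 h than at 1.5 h, a comparison in which 2.24% of genes were called higher. Ifit3 was 7.12-fold higher (log2 difference 2.83, adjusted p = 2.95e-05) and Ifit2 5.29-fold higher (2.40, adjusted p = 6.46e-05). Ifit1 was 1.77-fold higher (0.82, adjusted p = 0.0386), and this call was lost under 15 of 26 alternatives, with adjusted p up to 0.143. On leaving out 1 library it was kept only without 1.5 h replicate 1 (1.09), 6 h replicate 1 or 6 h replicate 3, and it was smallest without 1.5 h replicate 3 (0.58, adjusted p = 0.115).

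As a share of the 6 h rise on the log2 scale, Ifit1 had reached 51.4% at 1.5 h, against 17.8% for Ifit2 and 20.3% for Ifit3. Without 1.5 h replicate 1 these shares were 46.2%, 10.6% and 10.7%. At 24 h Ifit3 kept 84.1% of it, Ifit1 67.4% and Ifit2 65.8%. The plot of the courses shows Ifit1 ahead of the other members at 1.5 h. At 24 h the log2 differences from untreated skin were closer, at 3.46 for Ifit1, 3.30 for Ifit2 and 3.73 for Ifit3. The share of Ifit3 is taken of a smaller 6 h rise (4.44 against 5.13 for Ifit1 and 5.01 for Ifit2). The shares themselves were not tested.

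**Figure D2:**
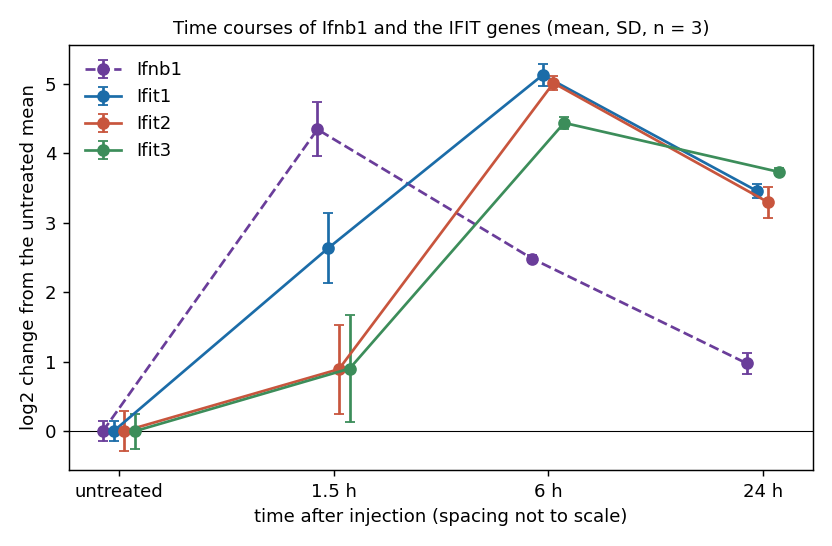
Log2 difference from the untreated mean for Ifnb1 (dashed) and the members in untreated skin and at 1.5 h, 6 h and 24 h, as group means with SD (n = 3), with times not spaced to scale. At 1.5 h Ifnb1 stands at 4.34, Ifit1 at 2.63 and Ifit2 and Ifit3 at 0.89 and 0.90, while Ifit3 is the highest at 24 h with 3.73.

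Whether the members followed different courses was tested within each array, by subtracting one member's log2 signal from another's and setting the untreated mean of that difference to 0. The test was an exact permutation test over all 369600 ways to deal 12 arrays into 4 groups of 3, two-sided in that any departure counts, and adjusted over the 3 pairs. It asks whether the difference varied over the 4 groups, so the order of single times is read from the values.

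Ifit1 minus Ifit2 was 1.55, 1.89 and 1.78 at 1.5 h, against 0.24, 0.27 and -0.17 in the 6 h samples and 0.32, -0.02 and 0.18 in the 24 h samples. The untreated samples ranged from -0.25 to 0.35, so that only the 1.5 h samples lay outside their range in all 3 replicates. The difference varied over the groups (exact permutation, adjusted p = 0.013). Its mean was 1.74 ± 0.17 at 1.5 h, 0.12 ± 0.24 at 6 h and 0.16 ± 0.17 at 24 h (SD, n = 3 each).

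Ifit1 minus Ifit3 was 1.41, 1.91 and 1.88 at 1.5 h. It was 0.63, 0.84 and 0.60 in the 6 h samples, and -0.29, -0.15 and -0.40 in those of 24 h. The 3 treated groups did not overlap: Ifit1 was ahead of Ifit3 at 1.5 h, less so at 6 h, and behind it at 24 h. The untreated samples ranged from -0.44 to 0.34, which covers the 24 h samples. The difference varied over the groups (exact permutation, adjusted p = 0.000779).

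Ifit2 minus Ifit3 was -0.15, 0.02 and 0.10 at 1.5 h. It was 0.38, 0.57 and 0.76 in the 6 h samples, and -0.61, -0.12 and -0.58 in those of 24 h. The untreated samples ranged from -0.25 to 0.43. At 1.5 h the pair differed from its untreated mean by -0.01 ± 0.13 (SD, n = 3), and over the 4 groups the difference varied (exact permutation, adjusted p = 0.013). All 6 h samples were above all 24 h samples.

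**Figure D3:**
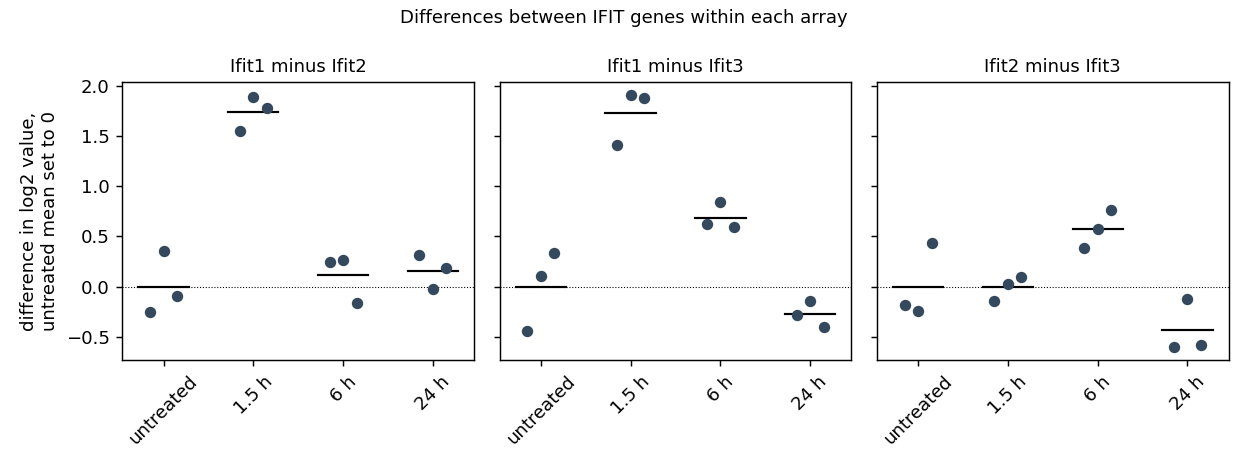
Within-array log2 difference between the members for the 3 pairs by group, with the untreated mean set to 0, 1 point per array and a line at the mean of 3. The 1.5 h points of both pairs with Ifit1 lie between 1.41 and 1.91, and those of Ifit2 minus Ifit3 between -0.15 and 0.10.

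The family span on chromosome 19 also holds Ifit1bl1, Ifit3b and Ifit1bl2. Ifit3b and Ifit1bl2 each had 1 probe set listed under that symbol alone, and Ifit1bl1 had none. Ifit3b is known as a close copy of Ifit3, and their promoter windows shared 258 of 260 aligned bases (99.2%), with the same 2 response element decamers at 188 and 154 bases before the start of Ifit3b. Whether their probe sets share probes was not checked here, so the signals of Ifit3 and Ifit3b are uncertain as to which copy they measure. Ifit3b was at 6.03, 5.89 and 5.88 in untreated skin, 7.36, 6.62 and 6.13 at 1.5 h, 10.48, 10.22 and 9.94 at 6 h, and 9.49, 9.54 and 9.62 at 24 h. It followed the order seen for Ifit3, with both later groups above all earlier samples. It was 19.5-fold higher than in untreated skin at 6 h (log2 difference 4.28, adjusted p = 6.34e-08) and 12.2-fold higher at 24 h (3.61, adjusted p = 5.02e-07), and its 1.5 h difference of 0.77 did not pass (adjusted p = 0.108) except without 1.5 h replicate 3 (1.05, adjusted p = 0.027).

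Ifit1bl2, whose second promoter window overlaps that of Ifit1 by 245 bases on the opposite strand and holds the same pair of response element letters, had a dim probe set. Its log2 signal was 3.38, 2.84 and 2.85 in untreated skin, 5.15, 4.61 and 4.29 at 6 h and 3.93, 4.37 and 4.30 at 24 h. Both treated groups lay above the controls. The log2 difference was 1.66 at 6 h (adjusted p = 0.000199) and 1.17 at 24 h (adjusted p = 0.00518). With values raised to a floor of 5 the 6 h difference was 0.049 (adjusted p = 0.497) and the 24 h difference could not be given, and without moderation the 24 h call was lost (adjusted p = 0.0594). At 1.5 h the difference was 0.40 (adjusted p = 0.349).

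Genes with the most similar course were found by the root mean square difference over the 12 arrays, each array taken as the log2 value minus the untreated mean of the gene. For Ifit1 the closest 5 were the chemokine genes Ccl3 (0.505) and Ccl2 (0.507), the antiviral gene Mx2 (0.533), and the chemokine genes Cxcl10 (0.624) and Ccl7 (0.635). Ifit2 and Ifit3 came only at places 11 (0.897) and 12 (0.967) in that order. The mean log2 difference of Ccl3 from untreated skin was 2.93 at 1.5 h, 4.86 at 6 h and 3.38 at 24 h, and that of Cxcl10 was 3.29, 5.93 and 3.98. At 1.5 h Ccl2 stood at 2.89, Ccl7 at 2.43 and Mx2 at 1.71, against 2.63 for Ifit1. The 1.5 h arrays were part of the measure, so a likeness at that time follows from the choice of genes.

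For Ifit2 the closest gene was Ifit3 (0.418), followed by the chemokine gene Ccl12 (0.429), Ifit3b (0.457), the nucleotide kinase gene Cmpk2 (0.504) and Mx2 (0.511), with Ifit1 at place 30. For Ifit3 it was Ifit3b (0.176), followed by Gm12250 (0.392), Ifit2 (0.418), Trim30d (0.447) and the chemokine gene Ccl5 (0.561), with Ifit1 at place 38. Gm12250 stood at 0.87, 4.10 and 3.20 above untreated skin at the 3 times. These are likenesses over the same arrays, with no test. Of the 6 such genes whose windows were searched, Gm12250 held 2 response element matches, Cxcl10 and Trim30d 1 each, and Ccl3, Ccl12 and Cmpk2 held 0.

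The genes beside the family on chromosome 19 did not all move in the same direction. Ch25h, which makes the antiviral oxysterol 25-hydroxycholesterol, lies next but one to Ifit2. Its log2 signal was 4.87, 4.65 and 4.77 in untreated skin, 8.65, 9.85 and 10.11 at 6 h and 7.05, 7.20 and 6.90 at 24 h, with no overlap between these groups. It was 27.4-fold higher than in untreated skin at 6 h (log2 difference 4.78, adjusted p = 3.59e-07) and 4.89-fold higher at 24 h (2.29, adjusted p = 0.000693). The lysosomal lipase gene Lipa, which stands between Ch25h and Ifit2, passed at no time.

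The death receptor gene Fas, next to Ch25h, was 1.78-fold higher at 6 h (log2 difference 0.83, adjusted p = 0.00552) and 1.54-fold higher at 24 h (0.62, adjusted p = 0.0458). On leaving out 1 library, the 24 h call of Fas was kept only without 6 h replicate 1 or 6 h replicate 3 (adjusted p up to 0.161). On the far side of Ifit1, Pank1, which makes the first enzyme of coenzyme A synthesis, was lower at 1.5 h (-0.65, adjusted p = 0.0142), 6 h (-0.63, adjusted p = 0.00415) and 24 h (-0.56, adjusted p = 0.0135), times at which 1.59%, 2.71% and 0.808% of all genes were called lower. The 1.5 h call of Pank1 was lost without untreated replicate 3 (-0.62, adjusted p = 0.0707) or 1.5 h replicate 1 (-0.56, adjusted p = 0.0511) or without moderation (adjusted p = 0.0609), and the 24 h call without untreated replicate 1 (adjusted p = 0.0618), untreated replicate 3 (adjusted p = 0.0637) or 24 h replicate 3 (-0.48, adjusted p = 0.0648). The mitotic kinesin gene Kif20b was lower at 6 h (-0.46, adjusted p = 0.0451). With 1 library left out, this call was kept only without 1.5 h replicate 1 or 2, 6 h replicate 1, or 24 h replicate 2 or 3 (adjusted p up to 0.148). The other neighbours, Stambpl1, Acta2, Slc16a12, Htr7 and Rpp30, passed at no time.

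**Figure D4:**
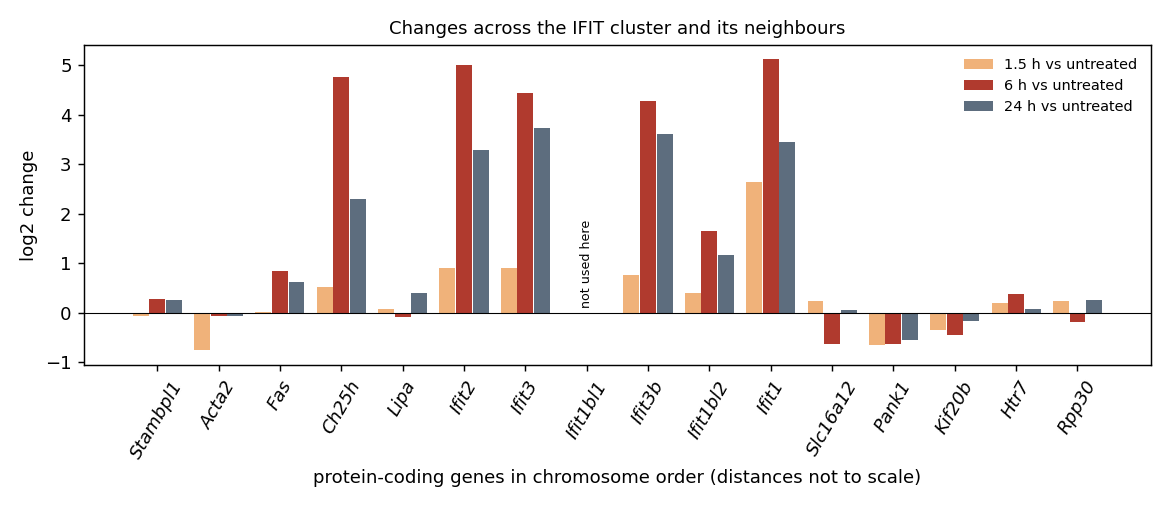
Log2 difference from untreated skin at 1.5 h, 6 h and 24 h, as bars of group mean differences, for the IFIT genes and the 5 genes on each side in their order along chromosome 19, with distances not to scale and Ifit1bl1 not used here. At 6 h Ifit2 (5.01), Ifit3 (4.44), Ifit3b (4.28), Ifit1 (5.13) and Ch25h (4.78) stand high, while Lipa, between Ch25h and Ifit2, is at -0.08.

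Ifnb1 and Ifna4 had the largest rises among the ligand genes, both at 1.5 h. Of 15 measured interferon genes, 2 were called higher at 1.5 h and 1 at each later time. Beside this and each list count below stand the shares of all genes called higher. These were 0.612% at 1.5 h, 3.38% at 6 h and 2.55% at 24 h. Ifnb1, which encodes interferon beta, was at 3.32, 3.59 and 3.35 in untreated skin, 8.10, 7.85 and 7.34 at 1.5 h, 5.89, 5.96 and 5.87 at 6 h, and 4.23, 4.53 and 4.43 at 24 h. Its groups did not overlap, and its peak came at 1.5 h, before that of the members. Its log2 difference from untreated skin was 4.34 at 1.5 h (adjusted p = 1.37e-08), 2.49 at 6 h (adjusted p = 2.82e-07) and 0.98 at 24 h (adjusted p = 0.00312). The untreated and 24 h samples were dim, and with a floor of 5 the difference was 2.77 at 1.5 h (adjusted p = 0.000584) and 0.91 at 6 h (adjusted p = 0.0139), while none was left at 24 h. Ifna4, which encodes an early interferon alpha, was dim in untreated skin and was higher at 1.5 h (log2 difference 2.10, adjusted p = 0.00535), a call lost with a floor of 5 (0.57, adjusted p = 0.379) and without moderation of the variance (adjusted p = 0.0702). It did not pass at 6 h (0.91, adjusted p = 0.0994) or 24 h (0.10, adjusted p = 0.901). Its 6 h value passed without 1.5 h replicate 1 (adjusted p = 0.0147) or 1.5 h replicate 3 (adjusted p = 0.0229). The median over the 15 genes was 0.17, 0.18 and -0.05 at the 3 times, against 0.02, -0.04 and 0.00 over all genes.

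Of 9 measured receptor and kinase genes, 0 were called at 1.5 h (2 at an unadjusted p under 0.05, limma). At 6 h 1 rose, against 3.38% of all genes, and at 24 h 1 rose, against 2.55%. The kinase gene Jak2 was 1.93-fold higher at 6 h (log2 difference 0.95, adjusted p = 0.000186). The receptor gene Ifnar2 was higher at 24 h (0.77, adjusted p = 0.00853), after differences of 0.15 and 0.30 that did not pass. Leaving out untreated replicate 2 ended this call (0.67, adjusted p = 0.0514), as did a fit without moderation (adjusted p = 0.0531). The other chain of the receptor, Ifnar1, differed by -0.02, -0.14 and 0.06 at the 3 times, the kinase gene Jak1 by 0.01, 0.09 and 0.06, and Tyk2 by -0.30, 0.12 and 0.12, none of which passed.

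Among the transcription factors, 1 of 8 measured rose at 1.5 h and 7 of 8 at 6 h and at 24 h. Their median was 0.09, 1.17 and 0.94 at the 3 times. Irf1, which can bind response elements directly, rose at 1.5 h (log2 difference 0.88, adjusted p = 0.00552, or 0.0515 without moderation) and stood at 2.21 at 6 h and 1.30 at 24 h. Irf7, the amplifier of interferon alpha production, was at 0.58 at 1.5 h (adjusted p = 0.205), then rose 9.99-fold at 6 h (adjusted p = 3.97e-07) and 13.1-fold at 24 h (adjusted p = 3.94e-07). The mean log2 value of Irf7 was 10.10 at 6 h and 10.49 at 24 h, while that of each member was lower at 24 h than at 6 h.

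Stat2 and Irf9, which act together at response elements, passed at 6 h and 24 h. Stat2 differed by -0.23 at 1.5 h (adjusted p = 0.464), 2.39 at 6 h (adjusted p = 2.00e-07) and 1.81 at 24 h (adjusted p = 5.37e-06). Irf9 differed by 0.05 (adjusted p = 0.848), 1.19 (adjusted p = 1.90e-06) and 0.97 (adjusted p = 2.32e-05). Irf2, an attenuator of interferon signals, was at 1.16 at 6 h (adjusted p = 1.33e-05). Irf3, which is activated in the protein rather than induced, differed by -0.09, -0.05 and -0.10 and did not pass.

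Of 6 feedback inhibitor genes, 1 was called higher at 1.5 h, 3 at 6 h and 2 at 24 h. Their median was 0.13, 0.70 and 0.50. Usp18, which blocks the interferon receptor, differed by 0.13 at 1.5 h (adjusted p = 0.759), then was 14.4-fold higher at 6 h (log2 difference 3.84, adjusted p = 1.98e-08) and 5.97-fold at 24 h (2.58, adjusted p = 1.15e-06). Socs3, an inhibitor of cytokine receptors, was called at 1.5 h (0.91, adjusted p = 0.0477) and at 6 h (1.21, adjusted p = 0.00415). With 1 library left out, its 1.5 h call was kept only without 6 h replicate 1 or 3 or 24 h replicate 3 (adjusted p up to 0.148). Socs1, which inhibits JAK kinases, was at 1.05 at 6 h (adjusted p = 9.51e-05).

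The genes that sense foreign RNA are interferon-induced in part, and 1 of 14 measured rose at 1.5 h, 9 at 6 h and 8 at 24 h. Their median was 0.15, 0.94 and 0.77. Dhx58, which encodes the receptor LGP2, rose 2.15-fold at 1.5 h (adjusted p = 0.0179, 0.0842 without untreated replicate 2, 0.133 with a floor of 5 at a log2 difference of 0.72, and 0.0953 without moderation), and was 11.6-fold higher at 6 h (adjusted p = 8.81e-08) and 7.47-fold at 24 h (adjusted p = 1.07e-06). Ifih1, which encodes the long double-stranded RNA sensor MDA5, differed by 0.25 at 1.5 h (adjusted p = 0.265), 3.09 at 6 h (adjusted p = 4.27e-09) and 1.77 at 24 h (adjusted p = 5.02e-07). Ddx58, which encodes RIG-I, a sensor of uncapped RNA ends, differed by 0.06 (adjusted p = 0.889), 2.75 (adjusted p = 1.44e-07) and 1.68 (adjusted p = 2.57e-05). At 6 h the RNA-activated kinase gene Eif2ak2 stood at 2.79 (adjusted p = 1.51e-07) and the endosomal receptor gene Tlr3 at 2.47 (adjusted p = 7.56e-08).

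**Figure D5:**
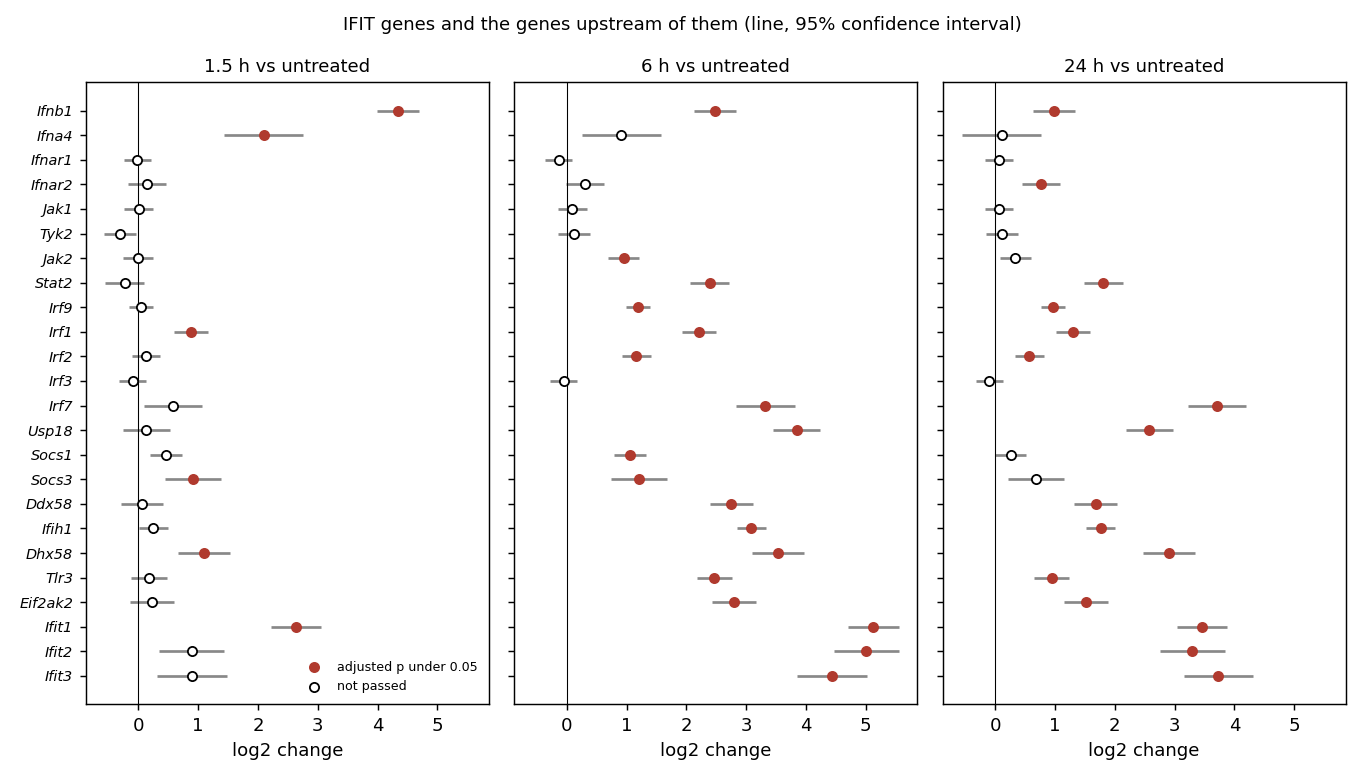
Log2 difference from untreated skin at 1.5 h, 6 h and 24 h for interferon pathway genes, feedback inhibitors, RNA sensors and the members. Lines are 95% intervals from limma, with filled points for an adjusted p under 0.05 and open points for the rest. Ifnb1 is at 4.34 at 1.5 h, while Stat2, Irf9, Ddx58 and Ifih1 are between -0.23 and 0.25 then and between 1.19 and 3.09 at 6 h.

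Genes of messenger RNA cap methylation, decapping and translation initiation were also examined. Of 8 measured genes of cap methylation and decapping, 1 rose at 6 h and 0 at 1.5 h or 24 h (0 at an unadjusted p under 0.05 at both times, limma). The gene that rose was Dcp2, which removes the cap (log2 difference 1.21, 2.31-fold, adjusted p = 1.36e-06). Of 18 measured genes of translation initiation factor 3 and the cap-binding factors, 0 passed at any of the 3 times (limma), with 0, 3 and 1 at an unadjusted p under 0.05. Their differences at 6 h lay between -0.30 and 0.20, with a median of -0.15 against -0.04 over all genes.

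Markers of some other cells also stood apart from untreated skin at the later times. The neutrophil group means were 6.04 at 1.5 h, 5.99 at 6 h and 6.03 at 24 h. Single neutrophil markers went in both directions, with log2 differences from untreated skin between -0.67 and 3.35 at 24 h. Neutrophil markers had a mean log2 value of 5.74 to 6.23 at 6 h and 5.88 to 6.14 at 24 h against 5.13 to 5.45 in untreated skin, with 5 of 14 called higher at each time. Monocyte and macrophage markers lay between 8.88 and 9.17 at 24 h against 8.16 to 8.68, with 3 of 10 called higher. At 6 h they lay between 8.43 and 8.98, with 1 called higher, 1 called lower and a median log2 difference of -0.03. The list for plasmacytoid dendritic cells, which make much interferon, had a mean log2 value between 7.73 and 8.18 on all arrays. Of its 6 genes 0 were called at any of the 3 times (limma), with 1, 1 and 0 at an unadjusted p under 0.05. These were Ccr9, Cox6a2, Ly6d, Pacsin1, Siglech and Tcf4. Which skin cells gave their signal was not tested, so the values do not measure the number of plasmacytoid cells. Glandular epithelium markers lay between 7.02 and 7.50 at 24 h against 5.51 to 5.62, with a median log2 difference of 1.71, 2 of 8 called higher and 7 at an unadjusted p under 0.05. At 6 h their mean was 7.91 in replicate 1 and 5.53 and 5.42 in replicates 2 and 3, and 0 of 8 were called (limma, 2 at an unadjusted p under 0.05). The part of these cells in the members' values was not tested.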

How the data were processed

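Total RNA of skin was amplified, labelled with biotin and hybridised, per the labels' protocols. Per the submitters' processing notes, the authors ran RMA (Affymetrix Expression Console 1.1), and the deposited numbers are its log2 values. They cover 35556 probe sets. The platform annotation gave 21789 of them 1 gene symbol, 1621 several, and 12146 were not listed. For the 999 genes with several probe sets, the brightest on average was kept, leaving 19938 genes. There was no filter on dim probe sets. No detection p-values are used, and the number of arrays limits the precision.

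All 4 groups entered a single limma fit (version 3.58.1, R 4.3.3, lmFit with eBayes, 8 residual and 5.24 prior degrees of freedom). P-values are two-sided and Benjamini-Hochberg adjusted over 19938 genes within each of 6 comparisons, with 0.05 as the threshold. Comparisons with untreated skin share its samples. Single genes were tested in limma, since 3 against 3 samples allow no exact permutation p under 0.1. Motifs were searched in RefSeq windows with Python 3.11.15. The neighbouring genes were taken from the RefSeq table of GRCm38.p6. The steps were tested on simulated data.

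The named genes are the members and their measured relatives, fixed genes of the interferon pathway, up to 4 of each list by size of change, the 5 genes most like each member and 5 neighbours on each side; some of these are given only in counts. Members and lists were chosen with earlier results of these data known. The alternatives were each library left out, both libraries high in Glycam1 left out, the replicate number as a block, other scalings, variance models, array weights, filters, floors, probe set rules and thresholds, and a fit of each pair of groups alone. Same-numbered samples correlated in their deviations from the group means at a median of 0.0464 (-0.215 to 0.334, 18 pairs, 4 over 0.1), so the numbers were not taken as pairs.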

Additional observations from a re-analysis of the deposited data

Results flagged for a closer look

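The rise over untreated skin differed between times for each member, as tested by the contrast of the times in limma. For Ifit1 the log2 difference was 2.49 between 1.5 h and 6 h, -1.67 between 6 h and 24 h, and 0.82 between 1.5 h and 24 h (adjusted p = 0.0386). For Ifit2 the same differences were 4.12, -1.72 and 2.40. For Ifit3 they were 3.54 between 1.5 h and 6 h and 2.83 between 1.5 h and 24 h, and its difference between 6 h and 24 h did not pass. Groups of 3 are too small for a check on single outlying samples.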

How the results depend on the processing

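The calls of the 3 members against untreated skin at 6 h and 24 h and of Ifit1 at 1.5 h were kept under 26 of 26 alternatives. The 3 differences between members kept an adjusted p under 0.05 in each alternative run, with exact permutation values up to 0.0486, 0.0104 and 0.0456. Centring, the floor of 5 and the mean of probe sets could not change these differences and gave the values of the main run. The threshold of 0.01 was not applied to them, and of the main values (0.013, 0.000779 and 0.013) only that of Ifit1 minus Ifit3 lies under it. Leaving out a library, the 1.5 h difference of Ifit2 lay between 0.53 and 1.15 and that of Ifit3 between 0.47 and 1.21, and each passed without 1.5 h replicate 3 only. In the same way Ifit1 at 24 h against 1.5 h lay between 0.58 and 1.09, and Ifit3 at 24 h against 6 h between -0.75 and -0.66. The Ifit1 value of 0.82 lost its call with only the 2 groups compared, without moderation, with a floor of 5, with all probe sets and at a threshold of 0.01, and at 0.78 with arrays centred on the median. The Ifit3 value of -0.71 gained a call with only the 2 groups compared. The causes were not tested.

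The replicate number as a block changed no call of a member. It ended the calls of Fas at 24 h (0.62, adjusted p = 0.0509) and of Socs3 at 1.5 h (0.91, adjusted p = 0.0558). With it the differences between members had adjusted exact permutation values of 0.0486, 0.0104 and 0.0208, and 442 genes changed at 1.5 h, 1136 at 6 h and 670 at 24 h.

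Counts of changed genes moved more. Without 1 library they ranged from 97 to 597 at 1.5 h, 712 to 1364 at 6 h and 423 to 859 at 24 h against untreated skin, from 949 to 2951 for 6 h against 1.5 h, 142 to 982 for 24 h against 6 h, and 321 to 753 for 24 h against 1.5 h, while all libraries gave 439, 1215, 670, 2646, 685 and 580. At a threshold of 0.01 they were 65, 540, 361, 767, 149 and 309. Without moderation there were 41 at 1.5 h, 424 at 24 h, 1543 for 6 h against 1.5 h, 239 for 24 h against 6 h and 340 for 24 h against 1.5 h. At 1.5 h there were 696 with array weights and 121 with a floor of 5. For 24 h against 6 h there were 247 with only those groups, 377 with the floor and 357 with all probe sets.

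Centring arrays on the median gave 4609 for 6 h against 1.5 h (760 higher and 3849 lower, against 1090 and 1556), 1133 for 24 h against 6 h (909 and 224, against 404 and 281), and 218 higher and 165 lower at 1.5 h (against 122 and 317). Quantile normalization gave 186 and 245 at 1.5 h. Cyclic loess gave 699 and 308 at 6 h (against 674 and 541), 1142 and 936 for 6 h against 1.5 h, and 241 and 307 for 24 h against 6 h. Over these 3 scalings the 1.5 h difference of Ifit1 stayed between 2.63 and 2.73.

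Of 85 log2 differences, 7 turned their sign somewhere, and 0 of these were called. Leaving out a library, the 1.5 h range was -0.042 to 0.088 for Jak1, -0.074 to 0.064 for Ifnar1, -0.093 to 0.35 for Usp18, -0.15 to 0.18 for Ddx58 and -0.012 to 0.082 for Irf9, and the 6 h range was -0.12 to 0.041 for Irf3. Centred arrays gave 0.085 for Ifnar1 and 0.0063 for Irf3 at 1.5 h. Quantile normalization gave 0.023 for Ifnar1 and -0.028 for Jak1 at 1.5 h and 0.021 for Irf3 at 6 h. Cyclic loess gave 0.017 for Ifnar1 and -0.0075 for Jak1 at 1.5 h and 0.054 for Irf3 at 6 h. With a floor of 5, both groups of Ifit1bl2 at 24 h and of Ifnb1 at 24 h lay at the floor and gave no difference.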
